A study of Mus musculus with 6 samples.

Results

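The 10 genes described here, Sfxn4, She, Rcsd1, Pigl, Zfp672, Eef1akmt2, Fez1, Akr1cl, Nefm and Gna14, lie on autosomes and stood at sharply different levels in wild-type mouse embryonic stem cells and in cells with a C-terminally truncated Dido3. They were selected on that difference in these same 6 arrays, so their differences are given as a description and not as a test. They are 10 of 18193 genes with a probe set of 1 symbol on the array, and all 18 probe sets carrying their symbols were used. A probe set is the group of short oligonucleotides with which an Affymetrix array reads a transcript, and a gene may have several. Setting all probe sets of a gene side by side shows whether its readings moved together or whether only 1 of them did.

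Affymetrix arrays covering the mouse genome were hybridised with RNA of 3 wild-type samples and 3 samples of the genotype Dido3deltaCT. Dido3 is the longest protein of the gene Dido1, and the truncation removes its C-terminal end. All cells were kept in medium with leukemia inhibitory factor (LIF), which maintains self-renewal. The arrays of a group are labelled biological replicates, but the number of independent lines behind them is not stated, so the spread may be that of cultures of 1 line.

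The genes belong to no common pathway. Sfxn4 encodes a sideroflexin of the inner mitochondrial membrane needed for respiratory complex I, and Pigl an enzyme of the endoplasmic reticulum that removes the acetyl group from the first sugar of the glycosylphosphatidylinositol (GPI) anchor. Eef1akmt2 encodes a lysine methyltransferase of translation elongation factor eEF1A. She encodes an SH2-domain adaptor, Gna14 an alpha subunit of the Gq class of G proteins, and Rcsd1 (CapZIP) a protein that binds the actin capping protein CapZ. Nefm encodes the middle neurofilament subunit and Fez1 an adaptor of kinesin transport, and both are best known from neurons. Akr1cl is a member of the aldo-keto reductase family and Zfp672 a zinc finger gene.

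The arrays were alike in general terms, with medians of 4.799 to 4.855 on the log2 scale of the deposited values. The 8 measured embryonic stem cell markers were high on every array, with list means of 11.2 to 11.4; the wild-type and truncated means of Pou5f1 were 11.15 ± 0.06 and 11.44 ± 0.05, those of Nanog 10.78 ± 0.15 and 11.25 ± 0.07, and those of Sox2 11.51 ± 0.18 and 11.45 ± 0.11 (SD, n = 3 each). Wild-type replicate 3 and truncated replicate 2 stood apart, with means of 12.10 and 12.46 for the added poly-A control transcripts against 6.12 to 7.85 on the other 4, and with low fibroblast markers. The mean of 22 measured fibroblast markers, 20 of them above the median of all probe sets, was 5.97 and 7.07 on these arrays and 8.20 to 8.76 on the others, and 0 of its 42 probe sets passed the limma fit described below (1 at an unadjusted p under 0.05). Each group holds 1 such array. These are called the high-control pair and the rest the 4 low-control arrays, and the differences from each are plotted for the 10 genes and given in the text for some of them and of the related genes. The groups also differed in Y-linked RNA, whose list mean over 5 measured genes was 5.49 to 5.72 on the wild-type and 3.74 to 3.89 on the truncated arrays. What follows from the truncation and what from other differences between the 2 groups of cells cannot be told apart here.

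Of the 18 probe sets, 11 passed the threshold of the limma fit over all 45037 probe sets (Benjamini-Hochberg adjusted p of 0.05), against 2.80% of all probe sets. Of the 11, 9 were higher in truncated cells, in 8 genes (background 1.68%), and 2 were lower, in Eef1akmt2 and Gna14 (background 1.12%). The groups of arrays did not overlap for 14 of the 18, against 18.6% of all probe sets. The genes were chosen on this contrast, so nothing is read from these shares. Of the 10 genes, 5 had 1 probe set, and 5 had between 2 and 4.

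The starts of 8 of the 10 genes were in the RefSeq promoter table of assembly GRCm38.p6, and 4 of their promoters are shown because they span what the genes share and do not share. Akr1cl and She, both higher in truncated cells, had the fewest and the most CpG pairs, and Eef1akmt2 and Gna14 were the 2 genes that were lower. Each sequence is the 250 bases before the annotated start, written 5′ to 3′ on the strand of the gene, with the CpG pairs in capitals. They lie at chr1:65032760-65033009 (Akr1cl, minus strand), chr3:89831120-89831369 (She, plus strand), chr7:132852648-132852897 (Eef1akmt2, minus strand) and chr19:16435417-16435666 (Gna14, plus strand).
Akr1cl: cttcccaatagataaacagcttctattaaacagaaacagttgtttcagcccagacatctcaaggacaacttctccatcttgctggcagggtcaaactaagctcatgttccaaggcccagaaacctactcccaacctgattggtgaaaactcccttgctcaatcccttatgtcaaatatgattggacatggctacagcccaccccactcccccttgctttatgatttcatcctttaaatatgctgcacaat
She: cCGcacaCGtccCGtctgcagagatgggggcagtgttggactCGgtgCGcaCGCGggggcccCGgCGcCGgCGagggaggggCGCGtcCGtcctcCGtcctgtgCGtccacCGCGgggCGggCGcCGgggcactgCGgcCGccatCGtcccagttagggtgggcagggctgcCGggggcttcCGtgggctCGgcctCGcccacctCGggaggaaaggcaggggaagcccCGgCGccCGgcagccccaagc
Eef1akmt2: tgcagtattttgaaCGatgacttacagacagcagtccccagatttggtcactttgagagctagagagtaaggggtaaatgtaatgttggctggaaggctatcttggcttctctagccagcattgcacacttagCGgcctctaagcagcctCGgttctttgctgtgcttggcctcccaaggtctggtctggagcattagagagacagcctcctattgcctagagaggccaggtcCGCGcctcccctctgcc
Gna14: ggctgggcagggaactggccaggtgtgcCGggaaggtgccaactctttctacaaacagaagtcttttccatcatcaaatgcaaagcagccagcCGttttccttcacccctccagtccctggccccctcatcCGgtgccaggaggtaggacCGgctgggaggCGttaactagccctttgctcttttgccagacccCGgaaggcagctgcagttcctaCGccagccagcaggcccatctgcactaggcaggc

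These 4 windows held 0, 32, 5 and 7 CpG pairs, against a median of 6 over 32851 promoters of the same length. The G and C content was 44.0% for Akr1cl, 77.6% for She, 52.8% for Eef1akmt2 and 60.0% for Gna14, against a median of 52.4%. Among the other genes, the window of Sfxn4 held 13 CpG pairs and that of Pigl 19, the 3 windows of Fez1 held 8, 15 and 13, and the 3 windows of Zfp672 held 29, 12 and 16. The genes that were higher in truncated cells thus ranged from a promoter without any CpG pair to promoters dense in them.

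Short motifs were searched on both strands of the 250 bases. The TATA motif TATAAA was found in 1 of the 12 windows of the 8 genes, in Fez1, and in 12.4% of all promoter windows. CCAAT was found in 5 of the 12 windows, in Akr1cl, Fez1 and Zfp672, against 33.8% of all windows, and Akr1cl held 3 copies. GGGCGG, the core of the GC box, was found in 5 of the 12, in Fez1, Sfxn4, She and Zfp672, against 32.7%. The E-box CACGTG was found in 1 of the 12, in Fez1, against 6.02%. None of the 4 motifs was found in the windows of Pigl, Eef1akmt2 and Gna14. A match is a run of letters and not a shown binding site.

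**Figure D1:**
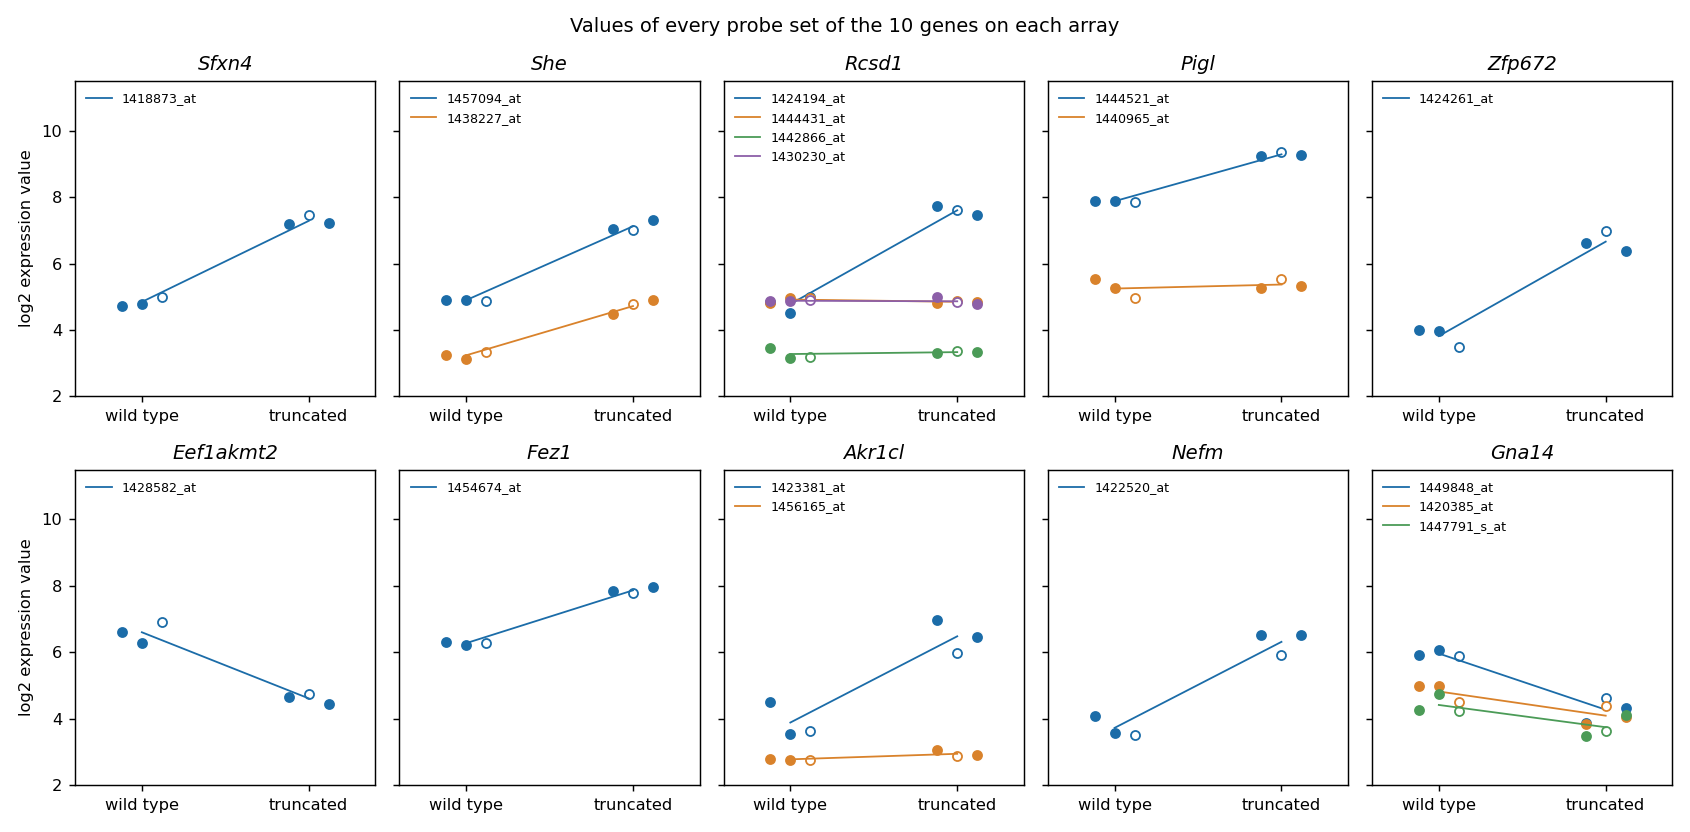
Log2 expression value (vertical axis) of every probe set of the 10 genes on each of the 3 wild-type and 3 truncated arrays; points are arrays, lines join group means, colours are probe sets, and open points mark wild-type replicate 3 and truncated replicate 2, the high-control pair. The 3 flat lines of Rcsd1 differ by -0.07 to 0.06 between groups beside another probe set that differs by 2.83; levels of different probe sets are not comparable.

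She was the gene whose probe sets all passed where it had more than 1. The probe set 1457094_at read 4.91, 4.89 and 4.88 in wild-type replicates 1 to 3 and 7.04, 7.02 and 7.31 in the truncated ones. The second, 1438227_at, read 3.24, 3.11 and 3.34 against 4.47, 4.79 and 4.89. All 3 truncated arrays lay above all 3 wild-type arrays in both. The differences were 2.23 (SE 0.10) and 1.49 (SE 0.13), or 4.68-fold and 2.80-fold, and the means of 1438227_at lay below 4.82, the median of all values, in both groups. The lowest truncated array lay 2.11 above the highest wild-type array for 1457094_at and 1.13 for 1438227_at.

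Gna14 was lower in truncated cells by all 3 of its probe sets, with differences of unequal size. The probe set 1449848_at read 5.93, 6.06 and 5.89 in wild-type cells and 3.86, 4.61 and 4.33 in truncated cells, a difference of -1.69 (SE 0.19). The probe set 1420385_at, also designed from a RefSeq mRNA, read 4.995, 4.97 and 4.49 against 3.84, 4.37 and 4.05, and 1447791_s_at read 4.26, 4.74 and 4.23 against 3.48, 3.63 and 4.10. Neither of the latter passed, with differences of -0.73 (SE 0.19) and -0.67 (SE 0.20), although the groups did not overlap in either. The truncated means of all 3 were below the median of all values (4.819). So were the wild-type means of 1420385_at (4.816) and 1447791_s_at (4.41). The difference of 1449848_at came to -1.90 on the 4 low-control arrays against -1.28 on the high-control pair, and that of 1420385_at to -1.04 against -0.12.

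The 4 probe sets of Rcsd1 gave unlike differences. The probe set 1424194_at, designed from a full-length cDNA clone, read 4.83, 4.50 and 5.0 in wild-type and 7.74, 7.61 and 7.46 in truncated cells, a difference of 2.83 (SE 0.15) or 7.10-fold. The truncated arrays stood 2.46 or more above the wild-type ones. The other 3, all designed from expressed sequence tags or similar records, gave overlapping groups: 1444431_at was at 4.91 ± 0.08 and 4.85 ± 0.04, 1442866_at at 3.27 ± 0.16 and 3.33 ± 0.04, and 1430230_at at 4.88 ± 0.02 and 4.86 ± 0.11 (SD, n = 3 each). Their differences were -0.07 (SE 0.09), 0.06 (SE 0.11) and -0.02 (SE 0.09). In both groups the means of 1444431_at and 1430230_at lay close to the median of all values (4.82), and those of 1442866_at lay below it. Whether these 3 probe sets read the transcript at such levels was not tested. Of the 4 probe sets, 1 thus differed by more than the spread within groups, and where the others lie on the transcript was not analysed here.

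Marker lists of blood and endothelial cells had means near the median of all values. Of 18 probe sets of 9 blood cell markers, 2 passed, both lower and both of Coro1a, and of 15 probe sets of 12 endothelial markers 1 passed, a rise of Eng by 0.98, both genes named after their values were seen. Over all probe sets, 2.80% passed. The list means were 4.85 to 4.96 for blood and 4.77 to 5.16 for endothelium over the 6 arrays. By their mean over the 6 arrays, 3 of the 9 blood markers lay above the median of all values, the highest at 8.73. So did 7 of the 12 endothelial markers, the highest at 7.53. The part of blood and endothelial RNA in the values of Rcsd1 and She was not tested.

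Pigl and Akr1cl had 2 probe sets each, of which 1 differed. For Pigl, 1444521_at read 7.89, 7.89 and 7.86 in wild-type and 9.24, 9.36 and 9.27 in truncated cells, a difference of 1.41 (SE 0.08) or 2.66-fold. The ranges within groups were 0.03 and 0.12, and the gap between groups was 1.35. The second, 1440965_at, read 5.54, 5.25 and 4.95 against 5.25, 5.53 and 5.31, overlapping groups with a difference of 0.12 (SE 0.16) that came to -0.11 on the 4 low-control arrays and 0.59 on the high-control pair.

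For Akr1cl, 1423381_at read 4.49, 3.53 and 3.62 in wild-type and 6.98, 5.99 and 6.46 in truncated cells, a difference of 2.599 (SE 0.33) or 6.06-fold. It had the widest spread within groups of the 10 leading probe sets, with ranges of 0.95 and 0.99, and the gap between groups was 1.51. The second, 1456165_at, read 2.79, 2.76 and 2.76 against 3.05, 2.87 and 2.90, near the lowest values of the arrays, which began at 2.19 to 2.30. Its groups did not overlap, by 0.08, and its difference of 0.17 (SE 0.09) did not pass.

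The other 5 genes had 1 probe set each, so no second reading of the same gene was available. Sfxn4 (1418873_at) read 4.73, 4.79 and 4.999 in wild-type and 7.18, 7.46 and 7.22 in truncated cells, a difference of 2.44 (SE 0.12) or 5.44-fold. Zfp672 (1424261_at) read 3.99, 3.96 and 3.49 against 6.62, 6.97 and 6.38, a difference of 2.85 (SE 0.19) or 7.19-fold. All truncated arrays were above all wild-type arrays, by 2.18 or more for Sfxn4 and 2.39 or more for Zfp672. The difference of Zfp672 came to 2.53 on the 4 low-control arrays and 3.48 on the high-control pair; that of Sfxn4 to 2.44 and 2.46. The transcribed region of Zfp672 overlaps that of its neighbour Zfp692 in the reference, and the probe set of Zfp692 differed by -0.02 (limma adjusted p = 0.984).

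The 2 genes known from neurons were also higher in truncated cells. Nefm (1422520_at) read 4.08, 3.57 and 3.51 in wild-type and 6.51, 5.92 and 6.52 in truncated cells, a difference of 2.59 (SE 0.22) or 6.03-fold. Fez1 (1454674_at) read 6.31, 6.22 and 6.28 against 7.86, 7.78 and 7.96, a difference of 1.59 (SE 0.09) or 3.02-fold. The wild-type mean of Nefm lay below the median of all values and that of Fez1 above it in both groups. Of 17 measured neuron markers, a list without Nefm and Fez1, 11 had a mean above the median, and the list mean was 5.64 to 5.78 on wild-type and 5.67 to 5.95 on truncated arrays. Of their 51 probe sets, 3 passed, all higher and all of Mapt, the gene of the microtubule protein tau, named here after its values were seen. Its leading probe set 1424719_a_at rose from 7.16 ± 0.43 to 8.77 ± 0.04 (SD, n = 3 each; limma adjusted p = 0.0126). That call was lost without wild-type replicate 2 or any 1 of the truncated replicates, where the adjusted p reached 0.096. The part of other neuronal RNA in the values of Nefm and Fez1 was not tested.

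Eef1akmt2 was, beside Gna14, the gene that was lower in truncated cells. Its probe set 1428582_at read 6.62, 6.27 and 6.92 in wild-type and 4.64, 4.75 and 4.43 in truncated cells. The highest truncated array lay 1.52 below the lowest wild-type array. The difference was -1.99 (SE 0.18), or 3.98-fold lower, and came to -1.91 on the 4 low-control arrays and -2.16 on the high-control pair. Its truncated mean of 4.61 lay below the median of all values.

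**Figure D2:**
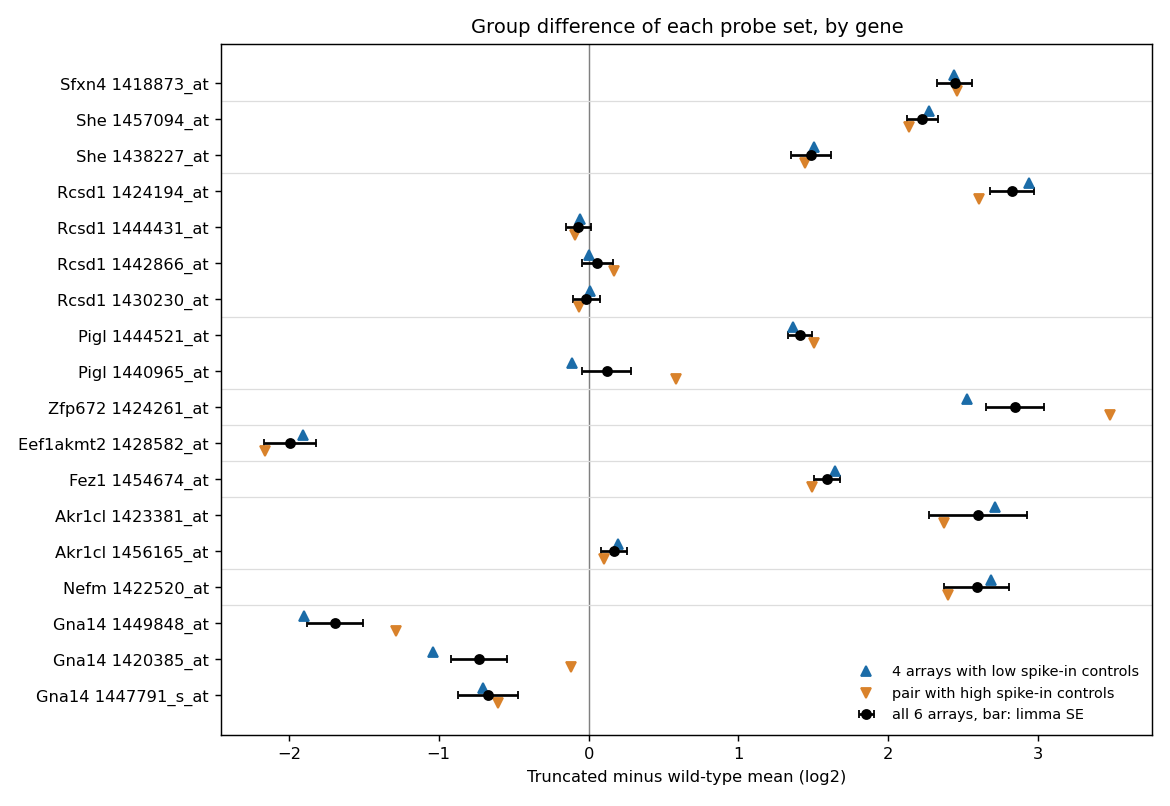
Truncated minus wild-type mean (log2, horizontal axis) of the 18 probe sets grouped by gene; black points with limma SE are from all 6 arrays, upward triangles from the 4 low-control arrays and downward triangles from the high-control pair. The 11 probe sets that passed lie at -1.99 to -1.69 or at 1.41 to 2.85. Their groups of arrays did not overlap, so both triangles must lie on the same side of 0 as the point, and nothing is read from this.

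Taking the 11 probe sets that passed, 4 had a wild-type mean below and a truncated mean above the median of all values (Rcsd1, Zfp672, Akr1cl and Nefm), and 2 the reverse (Eef1akmt2 and Gna14). A further 4 were above it in both groups (Sfxn4, She, Pigl and Fez1, the wild-type means of Sfxn4 and She being 4.84 and 4.89), and 1438227_at of She was below it in both. For values near the floor of the arrays the size of a difference is against background. By size of difference, the leading probe sets ranked between 30 and 270 among all 45037. Of the 11, 6 were designed from an mRNA or full-length cDNA record and 5 from expressed sequence tags or similar records. For the 7 that did not pass, these numbers were 1 and 6. The record types of all probe sets were not counted and the genes were chosen on this contrast, so nothing is read from these numbers.

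Most probe sets of genes related to the 10 by family or pathway did not pass, as was also so for the probe sets of the whole array. In 10 lists with 165 measured genes and 380 probe sets, 18 probe sets of 14 genes passed in the limma fit (4.74%, against 2.80% of all), 12 higher and 6 lower in truncated cells. The median difference over the 380 was 0.002, against 0.006 over all probe sets. The count fell to 5 with wild-type replicate 2 left out and to 1, 9 and 3 with truncated replicate 1, 2 or 3 left out; in these 4 settings 308, 149, 718 and 205 of all 45037 probe sets passed in place of 1261.

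Among the relatives of Sfxn4, the other sideroflexins (Sfxn1, Sfxn2, Sfxn3 and Sfxn5) did not pass. Of 30 probe sets of the list of sideroflexins and complex I assembly, 1 rose and 1 fell, with a median of -0.20. Ndufaf3, a complex I assembly factor, fell from 7.67 ± 0.12 to 6.69 ± 0.12 (adjusted p = 0.00799). Acad9, which acts in the same process, rose by 0.78 in 1453206_at (adjusted p = 0.0158). Without truncated replicate 1 or 3 neither passed (adjusted p up to 0.0652 and 0.0895 over the alternatives); Acad9 also did not pass without wild-type replicate 2 or truncated replicate 2. The difference of 1453206_at came to 0.655 on the 4 low-control arrays and 1.04 on the high-control pair. The Acad9 probe sets 1429581_at and 1444394_at differed by -0.05 and 0.095 and did not pass. In the list of iron-sulfur cluster assembly, 1 of 25 probe sets passed, 1433970_at of Bola3 (-0.55, adjusted p = 0.0468). It did not pass with any 1 array left out. The Bola3 probe sets 1445696_x_at and 1458384_at differed by 0.14 and 0.002.

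For Pigl, 26 other genes of GPI anchor synthesis were measured with 61 probe sets, of which 3 rose and 1 fell (median -0.004). Both probe sets of Piga, 1453497_a_at and 1427305_at, rose, by 0.98 and 0.91 (adjusted p = 0.0237 and 0.0453). Piga encodes the catalytic subunit of the first step of anchor synthesis and is X-linked. The difference of 1427305_at came to 1.115 on the 4 low-control arrays and 0.499 on the high-control pair. Pigx rose by 0.56 in 1425134_a_at (adjusted p = 0.0427). Dpm1, a subunit of the enzyme that makes the mannose donor, fell from 7.96 ± 0.08 to 7.10 ± 0.08 in 1449438_at (adjusted p = 0.00732). Pigx 1455284_x_at and Dpm1 1419353_at, both below the median of all values, differed by -0.02 and -0.07. Dpm1 did not pass without truncated replicate 1 or 3 (adjusted p at most 0.053), and Piga and Pigx passed in 1 of the 6 cases with an array left out.

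For Eef1akmt2, 1 of 35 probe sets of elongation factors and their methyltransferases passed, a fall of Eef2k by 0.64 (adjusted p = 0.0292), the kinase of elongation factor eEF2; it passed in 1 of the 6 cases with an array left out. The list median was -0.001. For Gna14, 7 of 64 probe sets of Gq class signalling passed, 6 higher and 1 lower (median 0.08). Plcb4, a phospholipase C activated by Gq, rose by 3 of its probe sets: 1435771_at from 8.34 ± 0.09 to 9.53 ± 0.12 (adjusted p = 0.00435), and 1425339_at and 1425338_at by 1.17 and 1.14. Its 1435771_at read 2.29-fold higher and passed with each array left out, which the other 2 did not without truncated replicate 1, nor 1425339_at without truncated replicate 3. Trio, a guanine nucleotide exchange factor activated by Gq, rose by 1.47 and 1.07 in 1433745_at and 1454711_at (adjusted p = 0.0084 and 0.0112), and its other 4 probe sets differed by -0.10 to 0.22. Arhgef25, another such exchange factor, fell by 0.78 (adjusted p = 0.0149), and Gna13, named here after its value was seen, rose by 0.65 in 1 probe set (adjusted p = 0.0196). Trio did not pass without wild-type replicate 2 or truncated replicate 1 or 3, Arhgef25 without wild-type replicate 2 or truncated replicate 1, and Gna13 passed in 2 of the 6 cases.

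For Nefm, 1 of 30 probe sets of intermediate filaments passed (median 0.01). It was 1454672_at of Nefl, the gene of the light neurofilament subunit, which read 6.42, 5.98 and 5.70 in wild-type and 6.998, 7.12 and 7.41 in truncated cells (adjusted p = 0.0361). The second probe set of Nefl, 1426255_at, read 8.53, 8.10 and 6.31 against 8.43, 7.90 and 8.70 and did not pass (adjusted p = 0.658). Its low value was on wild-type replicate 3, the array with the lowest fibroblast markers. Truncated replicate 2, the other array with low fibroblast markers, read 7.90, and a relation to these markers was not tested. The difference of 1426255_at came to 0.25 on the low-control arrays and 1.59 on the high-control pair. Nefl is the nearest measured gene on 1 side of Nefm on chromosome 14, and 1454672_at passed in 2 of the 6 cases with an array left out.

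For Fez1, 1 of 36 probe sets of its relatives and partners passed, a fall of the kinesin light chain gene Klc3 by 0.88 (adjusted p = 0.0299), and for Rcsd1, 1 of 36 of actin capping protein and its regulators, a rise of Capzb by 0.65 in 1453960_a_at (adjusted p = 0.0268). Each passed in 2 of the 6 cases with an array left out. For She and Akr1cl, 0 of 39 probe sets of SH2 adaptors and 0 of 24 of aldo-keto reductases passed in the limma fit, with 6 and 3 at an unadjusted p under 0.05. For Zfp672, 13 of the 574 probe sets of 304 other genes named Zfp and a number passed (2.26%), 9 higher and 4 lower, with a median of -0.001.

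**Figure D3:**
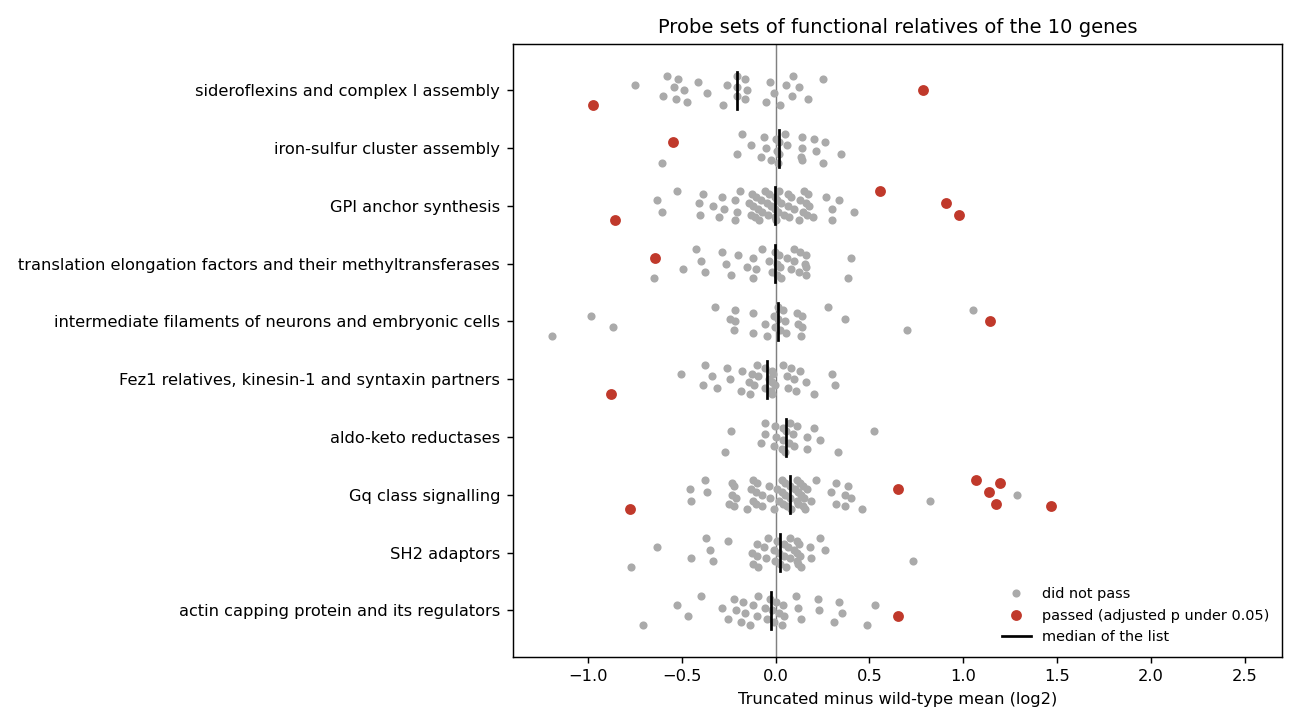
Truncated minus wild-type mean (log2, horizontal axis) of the 380 probe sets in the 10 lists of relatives; grey points did not pass, red points passed the adjusted p threshold and black bars are list medians. Most points lie close to 0, and the Gq class list holds 7 of the 18 red points, 6 of them to the right.

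Beyond being autosomal, the genes were not chosen by position, and they lie on 7 chromosomes (1, 3, 7, 9, 11, 14 and 19). The nearest 5 measured genes on either side of each, 99 genes with 201 probe sets, were taken in their order in the reference. Of the 201, 9 passed in the limma fit (4.48%, against 2.80% of all), 6 higher and 3 lower, and the median difference was 0.001. Leaving out wild-type replicate 1, 2 or 3 gave counts of 5, 3 and 14, and leaving out truncated replicate 1, 2 or 3 gave 2, 4 and 3. Over all probe sets these settings gave 713, 308 and 1669, and 149, 718 and 205. None passed beside Sfxn4, Rcsd1, Zfp672 and Gna14 in the limma fit, where 3 of 24, 4 of 19, 1 of 10 and 5 of 29 probe sets had an unadjusted p under 0.05. Such counts were 6 of 25 beside She, 4 of 20 beside Pigl, 1 of 18 beside Eef1akmt2 and 4 of 19 beside Fez1. They were 9 of 16 beside Akr1cl, 2 of 21 beside Nefm and 39 of 201 in all. Among the 574 probe sets of the genes named Zfp and a number, 110 had such a p. The count over all probe sets at this cut is not given here, so nothing is read from these counts.

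The largest difference among the 9 was that of the gene next to Fez1, Pknox2, which encodes a homeodomain factor. Its probe set 1433907_at read 5.09, 4.75 and 4.58 in wild-type and 6.97, 6.64 and 6.50 in truncated cells, a rise of 1.90 (SE 0.17; limma adjusted p = 0.00504). Both Fez1 and Pknox2 were thus higher in all 3 truncated arrays. A second probe set of Pknox2, 1428017_at, differed by 0.05 (adjusted p = 0.912).

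Next to Eef1akmt2, Fam53b moved the other way. Its 1455428_at read 4.96, 5.02 and 5.22 against 6.28, 6.27 and 6.48, a rise of 1.28 (SE 0.11; adjusted p = 0.00459) beside the fall of Eef1akmt2, and its 1431173_at differed by 0.27 (adjusted p = 0.664). The groups did not overlap in 1455428_at. The calls of Pknox2 and Fam53b held with each array left out, with an adjusted p of at most 0.0422 in each.

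Around Akr1cl, 3 of 16 probe sets passed, all higher: the lens crystallin gene Cryga by 1.31 (adjusted p = 0.0132), Idh1, the cytosolic isocitrate dehydrogenase, by 1.01 (0.0384) and D630023F18Rik by 0.60 (0.0497). They are the third to the fifth measured genes on 1 side of it. Second probe sets of Idh1 (1419821_s_at) and D630023F18Rik (1439880_at) differed by 1.03 and 1.25. Neither passed (limma adjusted p = 0.0903 and 0.152), although the groups did not overlap. Cryga was at 3.35 ± 0.24 and 4.66 ± 0.24, below the median of all values in both groups. The differences of Cryga and of Idh1 1422433_s_at came to 1.58 and 1.25 on the low-control arrays and to 0.78 and 0.53 on the high-control pair. Idh1 1422433_s_at and D630023F18Rik 1440468_at passed in 1 of the 6 cases with an array left out, and Cryga in 3.

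The remaining neighbours that passed were Nefl, given above, Dock5 near Nefm, Adar near She and Zswim7 near Pigl. Dock5 fell by 0.97 in 1425747_at (adjusted p = 0.00714) and differed by 0.11 and -0.04 in its other 2 probe sets; it did not pass without truncated replicate 1 (adjusted p = 0.0505). Adar, an RNA editing enzyme, fell by 0.89 in 1425405_a_at (adjusted p = 0.0246) and differed by 0.06 and -0.14 in its others. Zswim7 fell by 0.54 (adjusted p = 0.043). Adar and Zswim7 each passed in 1 of the 6 cases with an array left out. The transcribed region of Nefm overlaps that of A230070E04Rik, whose 3 probe sets differed by -0.01 to 0.14 and did not pass.

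**Figure D4:**
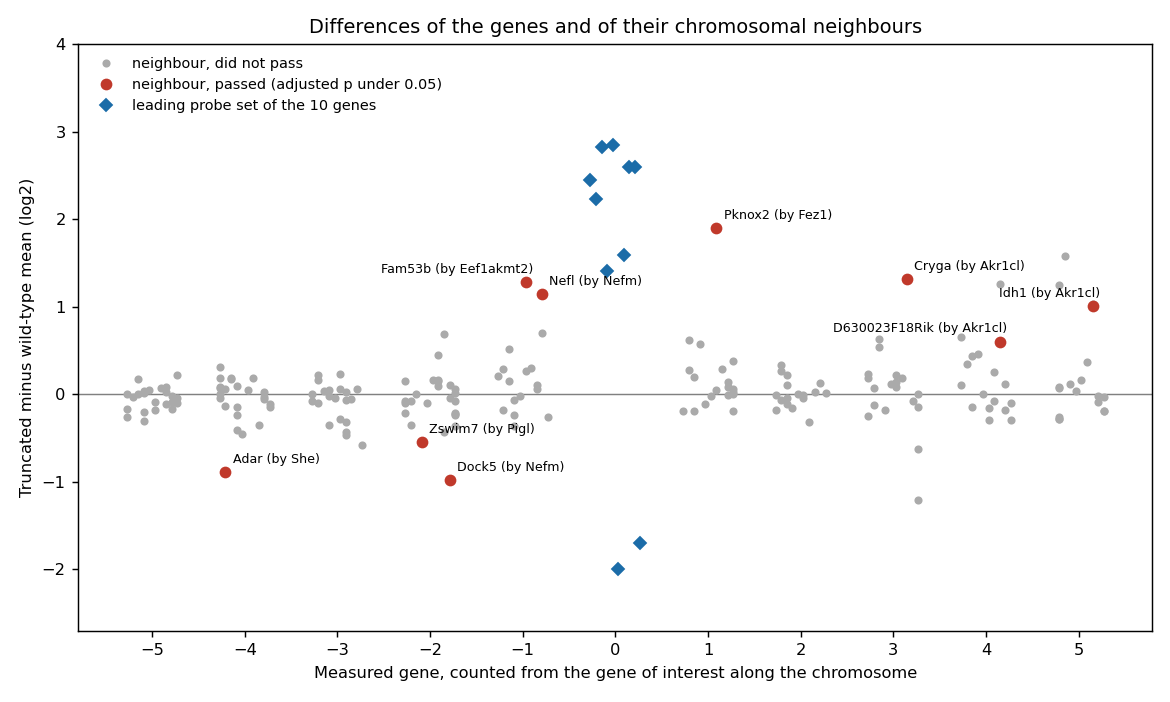
Truncated minus wild-type mean (log2, vertical axis) of the leading probe sets of the 10 genes (diamonds at 0, slightly spread) and of all probe sets of the 5 measured genes on either side (points, at the place of the gene in chromosomal order); red points passed the adjusted p threshold. The 9 red points lie between -0.97 and 1.90, with Pknox2 beside Fez1 the highest.

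Over the 6 arrays, the gene of known name whose profile was most like that of each of the 10 was found by the root mean square distance between profiles centred on their means. Smtnl1 was nearest to 3 of them, Nefm (distance 0.21), Rcsd1 (0.23) and Akr1cl (0.35), and had a wild-type mean of 5.65 ± 0.17 and a truncated mean of 8.16 ± 0.24 (SD, n = 3 per group). Fbp2 was nearest to Sfxn4 (0.16), Dzip1 to She (0.18) and Calcoco2 to Zfp672 (0.29). Kalrn was nearest to Pigl (0.07) and Cndp1 to Fez1 (0.05). Of the genes that were lower, Scd1 was nearest to Eef1akmt2 (0.11) and Mnd1 to Gna14 (0.15). A short distance over 6 arrays of 2 groups reflects mainly a group difference of like size, such as 1.55 for Cndp1 against 1.59 for Fez1, and these genes were picked for that likeness.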

How the data were processed

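The series holds 6 arrays. The authors deposited log2 expression values per probe set, with the log2 scale read from the values; for the summarising and normalising steps, the sources used here give no method. The values were used without further scaling. Of 45101 probe sets, 64 controls were left out and 45037 tested; 34945 had 1 gene symbol in the platform annotation, 932 several and 9160 none. Truncated was compared with wild type with limma 3.58.1 (functions lmFit and eBayes, R 4.3.3), two-sided, with Benjamini-Hochberg adjustment over all probe sets and a threshold of 0.05; the script was tested on simulated data. Group values are means ± SD. The number of arrays limits the precision. The members, lists and alternatives were chosen with earlier results of these data known, and the Zfp list after the files were read.

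Named are all probe sets of the 10 genes, up to 3 genes past the threshold for each list of relatives, up to 12 such neighbours, by size, and the 1 nearest profile for each gene. The leading probe set of a gene has the highest mean over the arrays. For Rcsd1, 1424194_at led only through its truncated values. Its wild-type mean of 4.78 lay below those of 1444431_at (4.91) and 1430230_at (4.88), which did not differ between groups. Neighbours and promoters came from RefSeq tables of GRCm38.p6; no build is tied to the arrays. Alternatives were a replicate block, quantile normalization, median centring, leaving out dim probe sets, a trended and robust variance, a block for the 2 arrays whose spike-in mean was over 2 log2 units above the median array, the other 4 arrays alone, and leaving out each array. Python 3.11.15 with matplotlib 3.10.9 made the plots.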

Additional observations from a re-analysis of the deposited data

How the results depend on the processing

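The 13 alternatives left 9 to 12 of the 18 probe sets of the 10 genes past the threshold, against 11 in the fit reported. Of these 11, 9 kept their direction and call in each alternative in which they were tested. The genes were chosen on this contrast in these same arrays, so nothing is read from the calls that were kept. When dim probe sets were left out, the leading probe sets of Rcsd1, Zfp672, Akr1cl and Nefm stayed in through their truncated values. Those of Eef1akmt2 and Gna14 stayed in through their wild-type values. The leading probe set of Akr1cl lost the call without wild-type replicate 2 or truncated replicate 1 or 3 (adjusted p = 0.0702, 0.0778 and 0.0895), and that of Gna14 without wild-type replicate 2 or truncated replicate 3 (0.0558 and 0.0639); 1420385_at of Gna14 passed on the 4 low-control arrays alone and without wild-type replicate 3 (0.031 and 0.0387). Near 0, the difference of Rcsd1 1430230_at turned to 0.008 on those 4 arrays and 0.031 without truncated replicate 3, and that of Pigl 1440965_at to -0.112 and, without wild-type replicate 3, -0.029; with an array left out they ranged from -0.077 to 0.031 and from -0.029 to 0.267. The count over all probe sets was 1261; it was 731 with the replicate block and 2366 with the spike-in block, and ranged from 149 without truncated replicate 1 to 1669 without wild-type replicate 3 when an array was left out. With the spike-in block the count was 29 for the relatives and 17 for the neighbours; with an array left out it ranged from 1 to 27 and from 2 to 14. The cause of these shifts was not tested, beyond the smaller number of arrays where one was left out. Deviations of same-numbered arrays from their group means had r = 0.328, -0.368 and -0.12 for numbers 1 to 3, against -0.443 to 0.389 for the other pairs. Whether same-numbered samples were prepared together cannot be read from this, as the deviations of 3 arrays sum to 0. The replicate block kept all 11 calls of the 10 genes and left 12 relatives and 7 neighbours. With 3 arrays a group, and values of 4 of the 10 genes below the median in wild-type cells, small differences may have been missed.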
